A study of Mus musculus with 6 samples.

Results

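The genes examined here encode the CD3 chains of the T cell receptor (TCR) complex and the first signalling proteins behind them: Cd3d, Cd3e, Cd3g, Cd247, Lck, Zap70, Lat, Lcp2 and Plcg1. They are set by their role in the pathway and were matched by gene symbol. All 9 were found among the 41079 listed genes, each on 1 row, and all 9 were among the 12227 genes tested. RNA came from D10 cells, a mouse CD4+ helper T cell clone whose source tissue is given as lymph node. Poly(A)+ RNA was sequenced from 3 non-acclimated replicates, held for 24 h at 37°C, and from 3 cold-acclimated replicates, held for 24 h at 26°C, with no further agent named for either condition. The question was how transcript levels of this signalling module differed after cold acclimation. The labels describe 1 cloned line for all libraries, with RNA extracted in independent batches, and name no separate donors. Expression is given as TPM, a unit of transcript abundance in which reads are divided by gene length and each library is scaled to the same sum.

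The TCR itself has almost no cytoplasmic tail and relies on the CD3 chains, which carry the tyrosine motifs that start the signal. CD3 epsilon pairs with CD3 delta or CD3 gamma, and the zeta chain, encoded by Cd247, forms a dimer. The kinase Lck phosphorylates these motifs, ZAP-70 binds the phosphorylated motifs, and ZAP-70 then phosphorylates the adaptors LAT and SLP-76 (Lcp2). These adaptors gather phospholipase C gamma 1 (Plcg1), which makes the second messengers that open the calcium and the diacylglycerol branches. Much of this control acts on phosphorylation, which RNA levels do not measure.

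No library carried all 12 of the T cell markers that were listed. Cd4, the coreceptor that brings Lck to the receptor, stood at 1.09, 0.0351 and 310 TPM in non-acclimated replicates 1, 2 and 3, and at 1.3, 0.352 and 328 TPM in cold-acclimated replicates 1, 2 and 3. Both libraries of replicate 3 thus held a Cd4 level of a CD4+ cell, and the other 4 libraries were near 0. Trac, the constant part of the TCR alpha chain, was at 15.0 TPM without and 12.8 TPM with cold acclimation in replicate 2, and between 129 and 207 TPM in replicates 1 and 3. Trbc2, a constant part of the TCR beta chain, stayed between 305 and 616 TPM in all 6 libraries. Of 12 T cell markers, 6 passed the minimum mean of 1 TPM, and Thy1 was listed at 0 in every library. The highest value in any library was 0.0454 TPM for Cd5, 0.0547 for Cd6, 0.214 for Trbc1, 0.805 for Cd27 and 1.59 for Tcf7. Cd2 was at 77.2 to 154.9 TPM in all 6 libraries. The T cell marker with the highest mean was Icos, a costimulatory receptor, which was higher in the cold-acclimated libraries (553 to 781 TPM) than in the non-acclimated libraries (286 to 453 TPM), with a log2 fold change of 0.94 and a limma adjusted p of 0.044, which was between 0.032 and 0.14 when 1 library was left out. Of 9 B cell markers, 0 passed the minimum, with summed levels of 0.396 to 1.26 TPM at 37°C and 0.125 to 1.08 TPM at 26°C. Macrophage and monocyte markers summed to at most 21.2 TPM, led by Lyz2 at up to 14.8 TPM in replicate 3. Erythroid markers summed to 61.4 to 487 TPM, almost all of it Hba-a1, with its highest levels again in replicate 3 (485 and 473 TPM). Because replicates 1, 2 and 3 differed in these markers in both conditions, the fold changes of the 9 genes are also given for each replicate pair, and those of the other genes with their levels per library or their range.

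The libraries held 16899628 to 31290854 reads, as recovered from the TPM values, and the 9 genes rested on 799 to 16988 reads per library. The smallest number belonged to Cd3d in non-acclimated replicate 2, where 64.3 TPM had an exact 95% Poisson interval of 59.9 to 68.9 TPM, which covers counting error only. Over all tested genes the log2 fold changes had a median of -0.34 with the TPM as deposited, and 0.03 after rescaling each library by its median of ratios to the genes' geometric means. A log2 fold change of a gene near -0.34 is thus near the middle of all genes, and values relative to that median are given where they differ in sign. Fold changes are on the log2(TPM + 1) scale, cold-acclimated over non-acclimated.

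In the mouse genome (GRCm39) 3 of the 4 CD3 genes lie together on chromosome 9. Cd3g (ENSMUSG00000002033) runs from 44880870 to 44891729 on the minus strand, and Cd3d (ENSMUSG00000032094) from 44893067 to 44898350 on the plus strand, so that the start sites of this pair face away from each other across 1337 bases. Cd3e (ENSMUSG00000032093) lies 11682 bases further on, from 44910033 to 44920961 on the minus strand. Cd247 and Zap70 are on chromosome 1, Lck on chromosome 4, Lat on chromosome 7, Lcp2 on chromosome 11 and Plcg1 on chromosome 2, and all 9 are protein-coding genes. Among the neighbours that overlap them, Pou2f1 on the strand opposite Cd247 reached 9.39 TPM, 4930469K13Rik opposite Lcp2 reached 7.86 TPM and Zhx3 opposite Plcg1 reached 7.16 TPM. The library kit keeps strand, but the strand setting used for counting is not given in the sources used here, so reads of these neighbours cannot be told apart with certainty.

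The sequence before the outermost annotated start is shown for 3 genes, namely Lat, which had the largest positive fold change of the 9, and the neighbours Cd3g and Cd3d, which share 1 stretch of chromosome but differed in how they varied. Each line gives 150 bases of the reference genome (GRCm39), 5′ to 3′ on the gene's own strand and outside annotated exons, with E-boxes (CANNTG, a short site bound by basic helix-loop-helix factors) in capitals. Lat is at chr7:125968878-125969027 (minus strand), Cd3g at chr9:44891736-44891885 (minus strand) and Cd3d at chr9:44892917-44893066 (plus strand).
Lat: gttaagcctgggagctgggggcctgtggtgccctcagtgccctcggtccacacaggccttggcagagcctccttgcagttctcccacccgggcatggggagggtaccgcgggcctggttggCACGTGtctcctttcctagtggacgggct
Cd3g: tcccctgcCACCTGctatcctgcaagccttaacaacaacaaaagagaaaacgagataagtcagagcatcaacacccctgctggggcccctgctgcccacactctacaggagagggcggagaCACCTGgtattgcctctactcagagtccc
Cd3d: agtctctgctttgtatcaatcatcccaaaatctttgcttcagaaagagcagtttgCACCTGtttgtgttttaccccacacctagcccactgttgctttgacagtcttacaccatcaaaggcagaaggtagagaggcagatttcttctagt
The windows of Cd3g and Cd3d held 2 and 1 E-boxes, all with the letters CACCTG, and the window of Lat held 1, with the letters CACGTG. An E-box was present in 48.8% of 20926 windows of the same length before mouse protein-coding genes, searched on both strands, so its presence is common. None of the 9 windows held TATAAA, which was present in 8.0% of all windows. The window of Lat held 6 CG pairs and those of Cd3g and Cd3d held 2 and 0, against a median of 3 for all windows.

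Among the CD3 chains, none passed the test. With the TPM as deposited 3 of the 4 had positive and 1 a negative log2 fold change, and after median of ratios scaling all 4 were positive. Cd3d encodes CD3 delta, and it stood at 332, 64.3 and 240.1 TPM in non-acclimated replicates 1, 2 and 3, and at 304, 78.6 and 243 TPM in cold-acclimated replicates 1, 2 and 3. Each cold-acclimated library lay close to the non-acclimated library of the same number, while replicate 2 was far below the others in both conditions. Its mean was 212 ± 136 TPM at 37°C and 209 ± 117 TPM at 26°C (SD, n = 3), and its log2 fold change was 0.06 with a standard error of 0.71. Cd3g encodes CD3 gamma and had the highest levels of the 9 genes, with 1847, 969.8 and 954 TPM at 37°C and 1604, 1521 and 1056 TPM at 26°C. The conditions overlapped, since the pair of replicate 1 differed by -0.20 on the log2 scale and the pairs of replicates 2 and 3 by 0.65 and 0.15. The low Cd3d of replicate 2 had no counterpart in its neighbour Cd3g, which in that replicate was within the range of the other libraries.

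Cd3e encodes CD3 epsilon, the partner of both of these chains, and stood at 874, 575 and 639.9 TPM without and 761, 484 and 476 TPM with cold acclimation. It was lower in the cold-acclimated library of each of the 3 pairs, by -0.20, -0.25 and -0.43 on the log2 scale, but the conditions overlapped. Its log2 fold change of -0.29 (SE 0.29, limma adjusted p = 0.50) lay 0.05 above the median of all genes, and after median of ratios scaling it was 0.12, so its direction depended on the scaling. Cd247 encodes the zeta chain and went the other way in all 3 pairs, with 39.9, 38.6 and 51.4 TPM at 37°C and 60.5, 43.0 and 70.3 TPM at 26°C. Its log2 fold change was 0.40 (SE 0.26, limma adjusted p = 0.32), and 0.80 after median of ratios scaling, where the limma adjusted p was 0.058. With both the scaling and a term for the replicate number, the limma adjusted p of Cd247 was 0.024. The low level of Cd247 among the CD3 genes depends on the gene length used. The TPM steps correspond to a length of 6969 bases, against 1135 bases for the canonical transcript in GENCODE, a ratio of 6.14 that was between 0.70 and 1.17 for the other 8 genes. Per canonical length its mean would be 311 in place of 50.6, and the comparison between conditions is not touched by this.

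**Figure D1:**
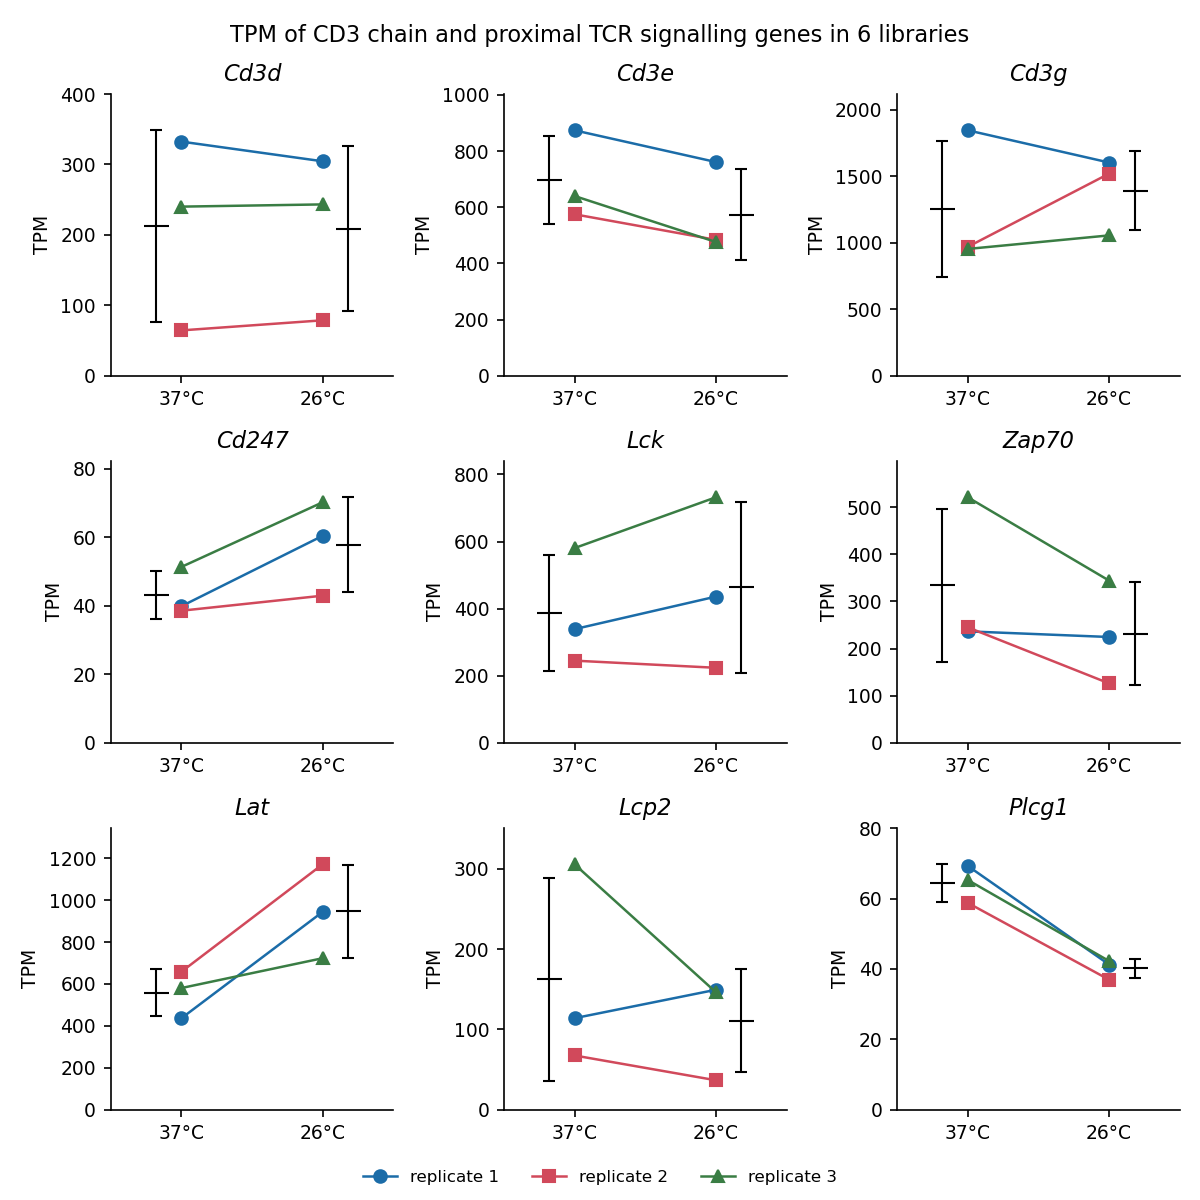
TPM of each of the 9 genes (vertical axes, linear, from 0) at 37°C (non-acclimated) and at 26°C (cold-acclimated), with lines joining libraries of the same replicate number and black marks for the mean ± SD of 3 libraries. Lat was higher and Plcg1 lower at 26°C along all 3 lines with no overlap between conditions, whereas in Cd3d, Lck and Lcp2 the lines lie at different heights, with replicate 2 the lowest.

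Of the kinases, neither passed the test with the TPM as deposited, and both varied more between replicates than between conditions. Lck stood at 339, 245 and 580.4 TPM at 37°C and at 436, 223 and 732 TPM at 26°C. Replicate 3 was the highest and replicate 2 the lowest in both conditions, which overlapped. The pairs of replicates 1, 2 and 3 differed by 0.36, -0.13 and 0.33 on the log2 scale. Its log2 fold change was 0.19 (SE 0.49, limma adjusted p = 0.81), and it became -0.10 without non-acclimated replicate 2 and -0.22 without cold-acclimated replicate 3. With both median of ratios scaling and a term for the replicate number it was 0.60, with a limma adjusted p of 0.045. Zap70 stood at 236, 245 and 521 TPM at 37°C and at 224, 126 and 344 TPM at 26°C. It was lower with cold acclimation in the pairs of replicates 1, 2 and 3 by -0.07, -0.95 and -0.60 on the log2 scale, and replicate 3 was again the highest. Its log2 fold change was -0.54 (SE 0.45, limma adjusted p = 0.42), which is -0.20 relative to the median of all genes.

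The adaptor Lat and the enzyme Plcg1 were the only 2 of the 9 genes whose conditions did not overlap, and they lay in opposite directions. Lat, the membrane scaffold that ZAP-70 phosphorylates, was at 436, 658 and 581 TPM in non-acclimated replicates 1, 2 and 3 and at 944, 1171 and 723 TPM in cold-acclimated replicates 1, 2 and 3. The lowest cold-acclimated value was above the highest non-acclimated value, and the ratio of the mean TPM was 1.69. The log2 fold changes of the pairs were 1.11, 0.83 and 0.32, the smallest in replicate 3, which was the replicate with Cd4 expression. The log2 fold change was 0.75, with a standard error of 0.28 and a 95% interval of 0.11 to 1.4, and the limma adjusted p of 0.09 missed the threshold. With a term for the replicate number it was 0.034, after median of ratios scaling it was 0.036 with a log2 fold change of 1.17, and with both it was 0.018 (limma adjusted p in each case). Relative to the median of all genes the log2 fold change of Lat was 1.09.

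Plcg1, the phospholipase that the adaptors recruit, was at 69.3, 58.8 and 65.3 TPM at 37°C and at 41.3, 37.0 and 42.3 TPM at 26°C. It was the most even of the 9 genes between replicates, with a highest to lowest ratio of 1.18 within the non-acclimated and 1.14 within the cold-acclimated libraries. The pairs differed by -0.73, -0.66 and -0.62 on the log2 scale. The log2 fold change was -0.67, with a standard error of 0.21 and a 95% interval of -1.15 to -0.19, and the limma adjusted p of 0.056 missed the threshold. With a term for the replicate number the limma adjusted p was 0.037. Relative to the median of all genes the value was -0.33, and after median of ratios scaling it was -0.26 with a limma adjusted p of 0.38, so its size depended on the scaling.

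Lcp2 encodes SLP-76, the cytosolic adaptor that joins LAT, and it varied widely. It stood at 114, 67.5 and 306 TPM at 37°C and at 149, 36.6 and 146 TPM at 26°C. The pair of replicate 1 differed by 0.39 on the log2 scale and the pairs of replicates 2 and 3 by -0.86 and -1.06. Its log2 fold change was -0.51 with a standard error of 0.69 (limma adjusted p = 0.63), and leaving out either non-acclimated replicate 3 or cold-acclimated replicate 2 turned it positive (0.08 and 0.15).

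Counted over the 9 genes, 0 were called in either direction. A call needs a limma adjusted p under 0.05 together with a log2 difference of 1 or more in size, which 2.63% of all tested genes met as higher and 16.0% as lower. On the adjusted p alone the count was also 0, against 20.7% of all tested genes. Before adjustment 2 genes (Plcg1 and Lat) had a limma p under 0.05. The share of all tested genes at that unadjusted level was not computed, and it is at least the 20.7% that passed after adjustment. The 2 genes without overlap between conditions were 1 higher and 1 lower, where 9.69% of all tested genes did not overlap and were higher and 31.4% did not overlap and were lower. In all 3 pairs 2 genes were higher (Cd247 and Lat), against 18.2% of all tested genes, and 3 were lower (Cd3e, Zap70 and Plcg1), against 47.9%. The median log2 fold change of the 9 genes was 0.06, compared with -0.34 for all tested genes, and 6 of the 9 were above that median. The median of the 9 changed sign with the libraries used. It was -0.42 when non-acclimated replicate 2 was left out, and -0.32 or -0.17 when cold-acclimated replicate 1 or 3 was. Other forms of the test placed more of them past an adjusted p of 0.05 in limma. With a term for the replicate number 2 of 9 passed (Lat and Plcg1), where 35.9% of all tested genes did. After median of ratios scaling 1 of 9 passed (Lat), against 18.0%, and with both 3 of 9 passed (Cd247, Lck and Lat), against 33.8%. A p that misses the threshold does not show that a level was the same in both conditions. The intervals of Cd3d (-1.59 to 1.71) and Lcp2 (-2.12 to 1.1) were wide, in a fit without a replicate term. With that term the standard error was 0.19 in place of 0.71 for Cd3d and 0.31 in place of 0.69 for Lcp2. For Lck it was 0.19 in place of 0.49, and for Zap70 0.22 in place of 0.45.

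**Figure D2:**
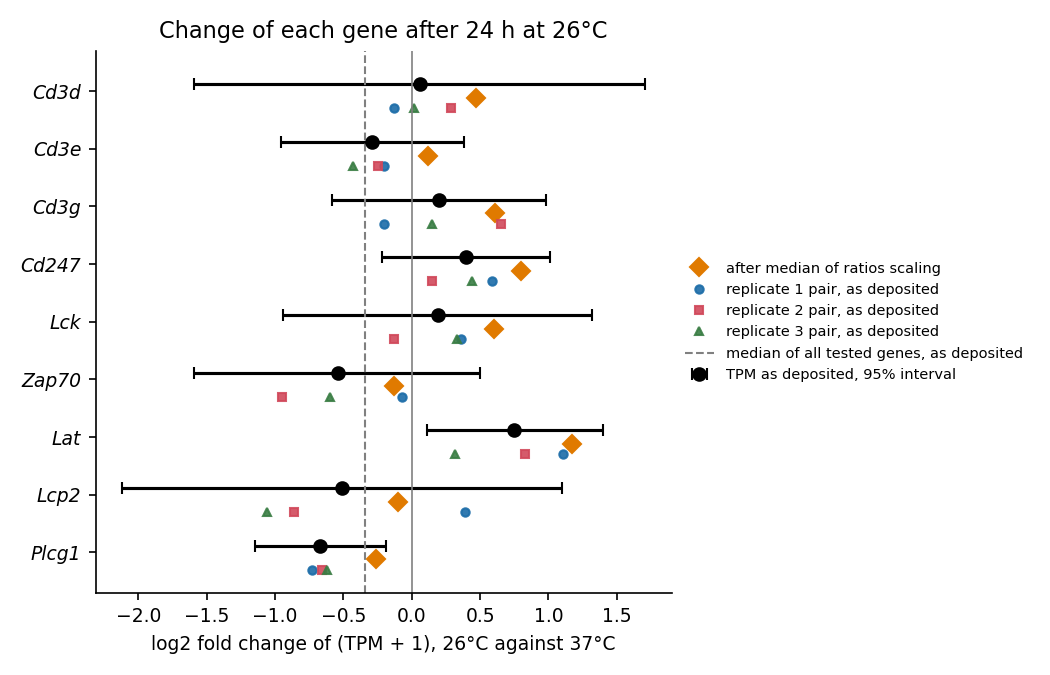
Log2 fold change of each gene, cold-acclimated over non-acclimated, on log2(TPM + 1) (horizontal axis), as the limma estimate with its 95% interval from the deposited TPM (black), after median of ratios scaling (orange diamonds) and for each replicate pair (coloured symbols). The intervals of Lat (0.11 to 1.4) and Plcg1 (-1.15 to -0.19) leave out 0, the other 7 include it, and the dashed line marks the median of all genes at -0.34.

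Several of these genes differed between replicate numbers in both conditions. For 7 of the 9 genes the range of the mean log2 level over replicates 1, 2 and 3 was larger than the size of the fold change, with Lat and Plcg1 as the exceptions, and this held for 50.2% of all tested genes. The replicate term of the limma fit, a test chosen after the values were seen, had an adjusted p under 0.05 for 2 of 9 genes, against 3.61% of all tested genes. These were Cd3d (F = 47.9, limma adjusted p = 0.012) and Lck (F = 19.3, limma adjusted p = 0.048), and Lcp2 (0.062) and Zap70 (0.096) followed. Replicate 2 differed from the mean of the other replicates by -1.95 on the log2 scale for Cd3d, -1.72 for Lcp2, -1.09 for Lck and -0.83 for Zap70. Replicate 3 lay above the mean of the others by 1.38 for Lcp2, 1.12 for Lck and 1.07 for Zap70. Among the CD3 chains this was not shared, since the range over replicate numbers was 2.15 for Cd3d but 0.63 for Cd3e, 0.78 for Cd3g and 0.55 for Cd247. Trac and Cd28, like Cd3d, were lowest in replicate 2, with Cd28, the main costimulatory receptor, at 7.35 and 5.61 TPM there and at 27.9 to 54.5 TPM in the other libraries. Cd4 was high in replicate 3 together with Lck, Zap70 and, at 37°C, Lcp2. The part of culture, extraction or cell identity in these differences was not tested.

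Ratios within a library compare the transcripts of proteins that work together, without any scaling between libraries. Protein amounts were not measured. For Zap70 over Lck, the ratio was 0.698, 1.00 and 0.898 in non-acclimated replicates 1, 2 and 3, and 0.515, 0.564 and 0.470 in cold-acclimated replicates 1, 2 and 3. It was lower in all 3 pairs, by -0.44, -0.83 and -0.93 on the log2 scale, and the conditions did not overlap, although neither gene alone was separated. The log2 difference of the means was -0.73 and the exact two-sided permutation p was 0.10, the smallest that 3 against 3 libraries can give, or 0.333 adjusted over the 5 ratios computed. For the adaptors, Lcp2 over Lat was 0.261, 0.103 and 0.526 at 37°C and 0.158, 0.0313 and 0.202 at 26°C. It was also lower in all 3 pairs (-0.72, -1.71 and -1.38), but the conditions overlapped (exact permutation p = 0.40, adjusted 0.50). With the replicate numbers kept as pairs, the exact permutation p was 0.25 for both ratios, the smallest that 3 pairs can give.

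Transcripts of the other CD3 chains were compared with Cd3e, since every CD3 dimer other than zeta contains CD3 epsilon. The absolute ratio of Cd247 depends on the length assigned to that gene, and its change between conditions does not. Cd247 over Cd3e was 0.0456, 0.0671 and 0.0803 at 37°C and 0.0794, 0.0888 and 0.148 at 26°C. It was higher in each pair by 0.80, 0.40 and 0.88 on the log2 scale, with 1 non-acclimated value just above the lowest cold-acclimated value (exact permutation p = 0.20, adjusted 0.333). Cd3g over Cd3e was 2.11, 1.69 and 1.49 without and 2.11, 3.14 and 2.22 with cold acclimation. It was higher in replicates 2 and 3 and level in replicate 1 (log2 difference of the means 0.49, exact permutation p = 0.20, adjusted 0.333). Cd3d over Cd3e was 0.38, 0.112 and 0.375 at 37°C and 0.400, 0.163 and 0.511 at 26°C, with replicate 2 apart in both conditions. Its log2 difference of 0.35 (exact permutation p = 0.50, adjusted 0.50) became -0.23 without non-acclimated replicate 2. With the replicate numbers kept as pairs, the exact permutation p was 0.25 for Cd247 over Cd3e and for Cd3d over Cd3e. For Cd3g over Cd3e it was 0.50.

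**Figure D3:**
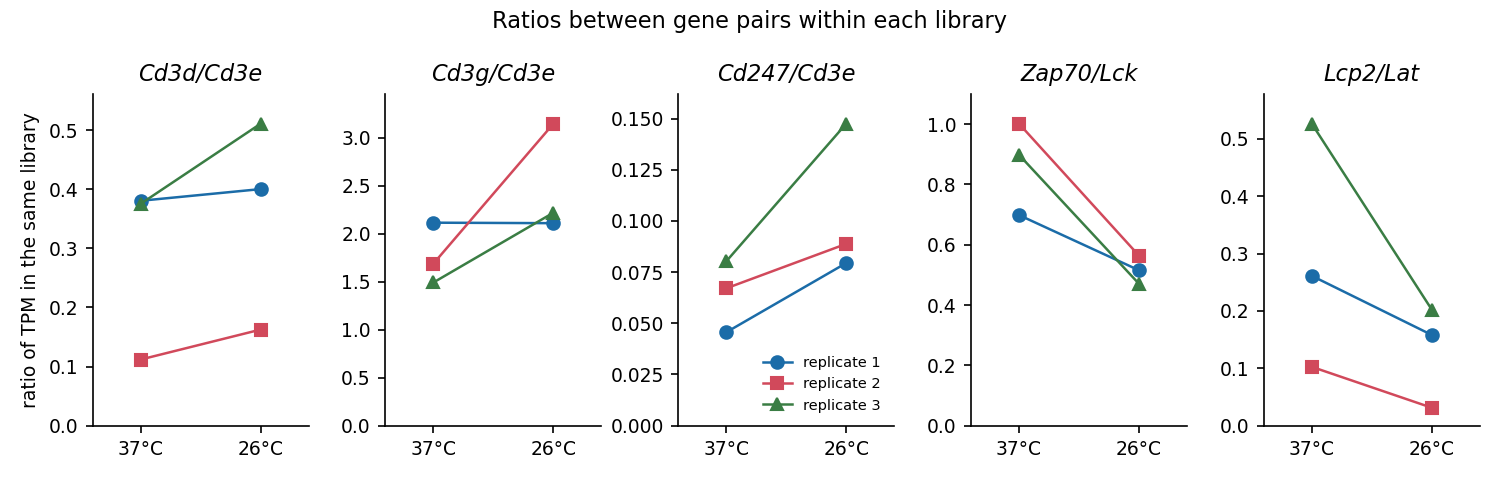
Ratio of the TPM of 2 genes in the same library (vertical axes, linear, from 0), at 37°C and 26°C, with lines joining libraries of the same replicate number. Zap70 over Lck is lower at 26°C along all 3 lines without overlap, and replicate 2 is apart in Cd3d over Cd3e.

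The order of the genes by mean TPM over the 6 libraries was Cd3g (1325), Lat (752), Cd3e (635), Lck (426), Zap70 (283), Cd3d (211), Lcp2 (137), Plcg1 (52.3) and Cd247 (50.6). Cd3g was above Lat in 6 of 6 libraries. The other neighbours in this order changed places in at least 1 library. Lat was above Cd3e in 1 of 3 non-acclimated and 3 of 3 cold-acclimated libraries. Plcg1 was above Cd247 in 3 of 3 non-acclimated and 0 of 3 cold-acclimated libraries, a change of place that follows from the values above and depends on the length assigned to Cd247. The remaining neighbours kept their order in 4 or 5 of 6 libraries.

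The rest of the pathway was read from 4 lists with 95 genes, of which 86 passed the minimum mean. None was called higher and 18 were called lower (20.9% of those tested, where 16.0% of all tested genes were called lower). All 18 had no overlap between conditions, which adds no support, since the call was made from the same libraries. The median log2 fold change of the 86 genes was -0.31, close to the -0.34 of all genes. The number of genes called lower depended on the libraries used. It was 18 when replicate 3 at 26°C was left out and 19 when both libraries of replicate 3 were, but 2 when replicate 1 or replicate 2 at 37°C or replicate 2 at 26°C was left out, 3 when replicate 1 at 26°C was, and 11 when replicate 3 at 37°C was. It was 0 when both libraries of replicate 1 or of replicate 2 were left out. The share of all tested genes called lower in these fits was not computed, so the counts cannot be set against it. Of the 18 genes, 2 (Sla2 and Nck2) kept their call whichever single library was left out, and the other 16 lost it in 3 to 5 of the 6 fits. After median of ratios scaling 7 were called lower and 6 higher, the 7 all being among the 18, and all 18 still had a negative fold change. The shares of all tested genes called higher and lower after this scaling were not computed.

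Among regulators of Lck and coreceptors, 6 of 23 tested genes were called lower (Ptpn6, Ptpn11, Sh2d2a, Sla, Sla2 and Ubash3a), against 16.0% of all tested genes. The list's median was -0.13. Sla2, an adaptor that dampens TCR signalling, was at 81.4, 80.0 and 72.6 TPM at 37°C and at 12, 7.26 and 22.6 TPM at 26°C. Its log2 fold change of -2.53 (SE 0.38, limma adjusted p = 0.0085) was the largest in size of this list. Ptpn11, which encodes the phosphatase SHP-2, was at 62.2 to 80.1 TPM at 37°C and 25.4 to 40.0 TPM at 26°C. Its log2 fold change was -1.15 (SE 0.25, limma adjusted p = 0.021). After median of ratios scaling Ptpn11 was not called (-0.75, limma adjusted p = 0.052). Cd4 had a log2 fold change of 0.20 with a standard error of 2.64, which reflects its split between replicates.

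Among partners of LAT and SLP-76, 6 of 25 tested genes were called lower (Cd2ap, Map4k1, Nck1, Nck2, Pik3cd and Vav1), against 16.0% of all tested genes. The list's median was -0.31. Nck2, an adaptor that links SLP-76 to the actin machinery, was at 16.6, 24.1 and 10.4 TPM at 37°C and at 0.90, 0.903 and 1.66 TPM at 26°C. Its log2 fold change was -3.01 (SE 0.36, limma adjusted p = 0.0069), the largest in size of the 4 lists. Its relative Nck1 was at 26.1 to 28.6 TPM at 37°C and at 9.89 to 13.2 TPM at 26°C. The log2 fold change of Nck1 was -1.18 (SE 0.23, limma adjusted p = 0.016). It was -0.79 after median of ratios scaling (limma adjusted p = 0.043), too small in size for a call.

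In the calcium and NFAT branch 4 of 22 tested genes were called lower (Orai3, Ppp3cb, Ppp3cc and Stim2), against 16.0% of all tested genes. The list's median was -0.42. Orai3, a subunit of the calcium channel, was at 33.8, 36.8 and 20.7 TPM at 37°C and at 10.3, 6.79 and 3.48 TPM at 26°C (log2 fold change -2.06, SE 0.40, limma adjusted p = 0.016). Ppp3cb, a catalytic subunit of calcineurin, was at 80.9 to 89.6 TPM at 37°C and at 11.1 to 41.4 TPM at 26°C (log2 fold change -2.11, SE 0.45, limma adjusted p = 0.020). In the diacylglycerol branch 2 of 16 tested genes were called lower, with a list median of -0.26. Dgka, the kinase that removes diacylglycerol, was at 34.2, 20.0 and 27.6 TPM at 37°C and at 6.96, 4.42 and 10.9 TPM at 26°C (log2 fold change -1.79, SE 0.36, limma adjusted p = 0.017). Prkcq, the protein kinase C that diacylglycerol recruits in T cells, was at 110.4, 182 and 97.2 TPM at 37°C. At 26°C it was at 35.4, 61.8 and 57.4 TPM (log2 fold change -1.3, SE 0.33, limma adjusted p = 0.032). Prkcq was not called after median of ratios scaling (-0.89, limma adjusted p = 0.083).

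**Figure D4:**
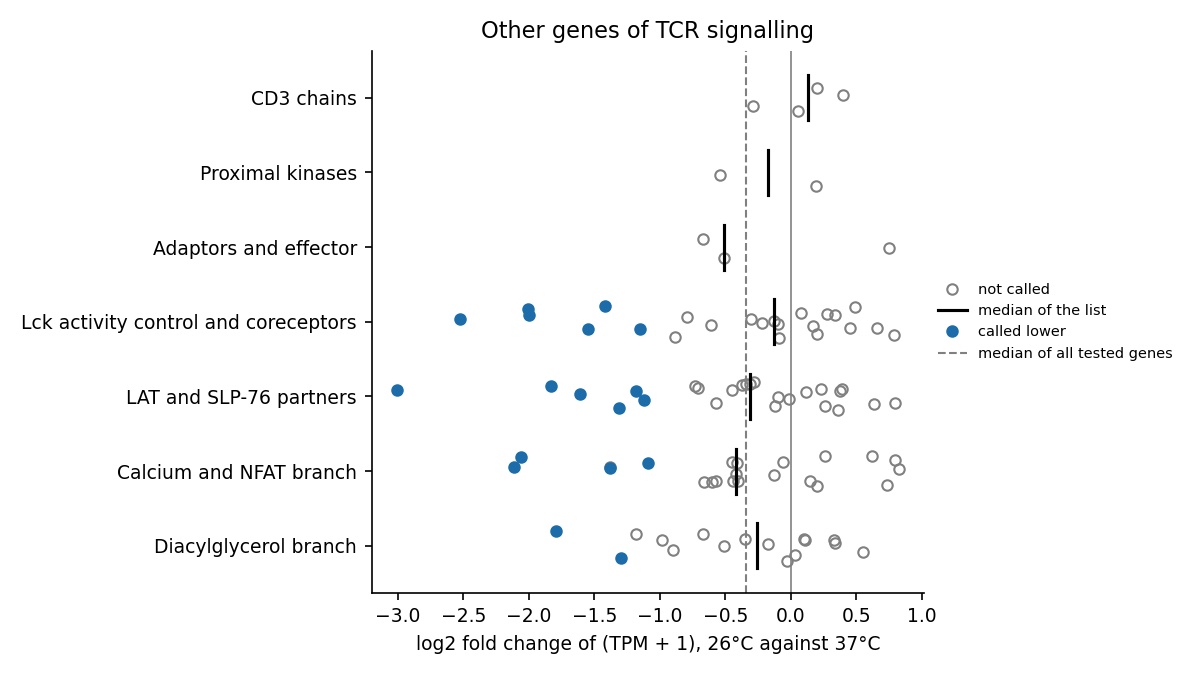
Log2 fold change of (TPM + 1), cold-acclimated over non-acclimated (horizontal axis), of each tested gene of the CD3 chains, proximal kinases, adaptors and effector, and of 4 lists of other TCR signalling genes, with vertical offsets only to separate points. Filled points mark the 18 genes called lower, all outside the 9 genes described, black bars mark each list's median and the dashed line the median of all genes.

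Other cell lineages use relatives of these proteins, and few of them were present. Of 14 such genes, 4 passed the minimum mean (Lat2, Btk, Lyn and Plcg2), 0 were called, and 4 were listed at 0 in every library. Lat2, a scaffold related to LAT in structure and use, was the highest at 86.5, 80.6 and 96.2 TPM without and 120.3, 83.2 and 101 TPM with cold acclimation (log2 fold change 0.20, SE 0.23, limma adjusted p = 0.57). Btk, the Tec kinase of B cells, was at 37.9 and 21.6 TPM in non-acclimated and cold-acclimated replicate 3 and at most at 0.653 TPM in the other 4 libraries, and so followed the replicate number as Cd4 did. Plcg2 was likewise highest in replicate 3, at 5.34 and 2.84 TPM against at most 0.846 TPM elsewhere. Lyn, a Src family kinase, was at 2.42 to 3.61 TPM at 37°C and at 1.04 to 1.32 TPM at 26°C, with a log2 fold change of -0.83 (SE 0.28) and a limma adjusted p of 0.073, which was 0.049 with a term for the replicate number.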

How the data were processed

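The authors made poly(A)+ strand-specific libraries from 6 samples and, per the submitters' processing notes, used FastQC 0.11.7, Trimmomatic 0.38, HISAT2 2.1.0 and featureCounts 1.6.3 with GRCm39. They deposited TPM per gene for all libraries in 1 table, with 0 columns of samples outside the series. The annotation, gene lengths and strand setting behind the TPM are not given in the sources used. Read numbers were taken from the step shared by a gene's TPM values, whole within 1e-06 reads for 100% of the 21195 genes above 0. GENCODE gave the transcript lengths, and the start used for each sequence was the outermost of the GENCODE and the deposited gene bounds.

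The test was limma (version 3.58.1, R 4.3.3), fitted with a variance trend to log2(TPM + 1) of the 12227 genes whose mean reached 1 TPM, with Benjamini-Hochberg adjustment over all of them. Called means past an adjusted p of 0.05 with a log2 difference of 1 or more in size. The other values came from Python 3.11.15 (numpy 2.4.6, pandas 2.3.3, scipy 1.17.1, matplotlib 3.10.9). The scripts were tested on simulated data. Deviations from the condition means correlated at 0.480, 0.503 and 0.512 between libraries of the same replicate number and at -0.408 to 0.019 between others. Deviations from a mean of 3 sum to 0, which by itself lowers some of these values. Replicate numbers were used as pairs for the pair differences and in the alternatives with a replicate term. The main test had no replicate term and was not paired. The labels speak of old and new extraction batches without assigning them. The labels call the replicates independent extractions of 1 line. Cd4 levels differed between replicate numbers, and the reason for this was not tested. The p-values measure only the spread between these samples.

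The genes and lists were chosen with earlier results of these data known, and the lists were written from general knowledge. Named were the 9 genes, Cd4, the 2 smallest p among called genes per direction and list, the tested relatives and the highest marker of each list; other genes, such as Trac, Trbc2, Cd28, Thy1 and the remaining called genes, were named after their values were seen. No B cell marker is named since none passed the minimum. Alternatives were a pseudocount of 0.1, no filter, median of ratios scaling, quantile normalization, the replicate block without and with that scaling, voom on recovered reads, and leaving out each library; leaving out both libraries of a number and the test of the replicate term were chosen after seeing the data. No protein sequence was used here.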

Additional observations from a re-analysis of the deposited data

How the results depend on the processing

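The 9 log2 fold changes, their median, their counts and the pathway counts were recomputed under each alternative. The 5 ratios were recomputed only with the replicate numbers kept as pairs and with libraries left out. Of the 274 recomputed values 222 were kept and 52 changed. A fold change or ratio was kept if its direction and its side of the threshold stayed, and a count if it stayed within 1.5 times. For a ratio only the direction could change, since its exact permutation p cannot go under 0.05 with so few libraries. For the median of the 9 genes a shift with the same sign could also be listed as changed, as at 0.20 with voom. After median of ratios scaling Cd3e turned to 0.12 (also with the replicate block), Lat passed at 1.17 (limma adjusted p = 0.036, and 0.018 with the block), 1 of the 9 genes was called, 1 had an adjusted p under 0.05, the median of the 9 was 0.47, and 6 pathway genes were called higher and 7 lower. With the replicate block Lat (0.75) and Plcg1 (-0.67) passed, which made 2 genes, and with block and scaling together Cd247 (0.80), Lck (0.60) and Lat passed, which made 3 genes past the adjusted p and 1 called, with a median of 0.47 and 7 pathway genes called higher. The block changed no other call of the 9 genes. Without a filter Plcg1 passed (-0.67, limma adjusted p = 0.045), which made 1 gene, and 7 pathway genes were called lower. Quantile normalization gave 3 pathway genes higher and 5 lower, and voom gave a median of 0.20 for the 9 genes. A pseudocount of 0.1 moved none of these past a threshold. The shares of all tested genes called higher and lower were not computed under the alternatives.

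Leaving out 1 library or both libraries of a replicate number gave log2 fold changes of -0.65 to 0.65 for Cd3d, -0.03 to 0.51 for Cd3g, -0.22 to 0.63 for Lck, -1.0 to 0.15 for Lcp2, and -0.23 to 0.84 for Cd3d over Cd3e. Cd3d, Lck, Lcp2 and that ratio changed sign on leaving out 1 library, and without both libraries of replicate 2 Cd3d (-0.05) and Cd3g (-0.03) did. Lat ranged from 0.57 to 0.97 and passed without cold-acclimated replicate 3 (0.93, limma adjusted p = 0.046), which gave 0 to 1 of the 9 genes past the adjusted p. Cd3e (-0.51 to -0.12), Cd247 (0.24 to 0.59), Zap70 (-0.89 to -0.16) and Plcg1 (-0.73 to -0.61) kept their sign. The median of the 9 ranged from -0.42 to 0.15, and pathway calls from 0 to 2 higher and from 0 to 19 lower. The cause of these changes was not tested. The 9 genes rested on at least 799 reads per library, and depth was not varied.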
